A study of Mus musculus with 8 samples.

Results

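The genes described here encode the voltage-gated sodium and calcium channels: their pore-forming subunits and the auxiliary subunits named with them. They were taken by symbol, as every gene of the deposited table named Scn with a number and the letter a or b, and every gene whose name begins with Cacna, Cacnb or Cacng. This gave 36 of the 15705 genes in the table, 12 for sodium channels and 24 for calcium channels, or 17 pore subunits and 19 auxiliary subunits. The table came from poly(A) RNA of the lateral ganglionic eminence (LGE) of mouse embryos at E18.5, the ventral forebrain region from which the projection neurons of the striatum arise. Control embryos carried 2 floxed alleles of Isl1, a LIM-homeodomain transcription factor gene, and no Cre. Conditional knockout (cKO) embryos carried the same floxed alleles together with Dlx1-Cre, a recombinase driven by a gene of ventral forebrain progenitors, so effects of Cre itself and of deleting Isl1 cannot be told apart. Each genotype had 4 libraries from littermate embryos genotyped on tail tissue, and neither litter nor sex is given. The values are the authors' adjusted values, rounded to whole numbers. They are not read counts, and the sequencing depth is unknown. The deposited RPKM values (adjusted values scaled to gene length and library sum) were used to compare levels between genes.

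Voltage-gated sodium channels carry the rising phase of the action potential. A single large pore protein with 4 homologous domains opens on depolarization, and small beta subunits with an immunoglobulin-like fold alter its gating and its delivery to the membrane. Voltage-gated calcium channels turn depolarization into calcium entry, which drives transmitter release, dendritic signalling and transcription. Their pore subunits fall into the high-voltage L-type and Cav2 channels, which bind beta and alpha2delta subunits, and the low-voltage T-type channels. In the developing forebrain Scn3a is known as an embryonic sodium channel, whereas Scn10a and Scn11a are best known from the sensory neurons of peripheral ganglia. Several gamma subunit genes encode proteins known mainly as auxiliary subunits of AMPA-type glutamate receptors.

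A few facts of the whole table bear on every value below. The adjusted values summed to between 23732455 and 24456923 per library, a range set by scaling. In the values, 1 direction of variation between libraries is almost absent, with a singular value of 0.000241 against 0.0433 for the next, and this makes SDs and SEs too small to a degree. Isl1 itself was at 3777, 3692, 4186 and 3517 in control replicates 1 to 4 and at 4930, 5377, 5618 and 5971 in cKO replicates 1 to 4. It was thus higher in the libraries labelled cKO (log2 fold change 0.53 ± 0.064 SE, limma adjusted p = 0.000338). The value covers the whole gene and does not check the labels, so every direction below rests on the labels. Genes that striatal neurons express were abundant, with control mean RPKM of 117 for Foxp1, 140 for Bcl11b and 71.4 for Gad1. The 8 markers of pallial (cortical) neurons had a summed value from 133 to 1442 in the controls and from 604 to 1550 in the cKO. Of the 8, 1 rose in the cKO by limma (2.87% of all genes rose), which raises the cKO sums. Control replicate 3 and cKO replicate 4 were lowest in these markers.

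Promoter windows from RefSeq (build GRCm38.p6) were found for 26 of the 36 members. Among the genes the comparison turns on, Scn10a, Scn11a and Cacna2d3 had one. The 250 bases before the start are shown for Scn11a and Cacna2d3, the pair whose window lies outside annotated exons, to set their letters beside their values. Both are on the minus strand, and capitals mark TAAT and its reverse complement ATTA, the core of many homeodomain sites. The Scn11a window is chr9:119825457-119825706, and the Cacna2d3 window is chr14:29721865-29722114.
Scn11a: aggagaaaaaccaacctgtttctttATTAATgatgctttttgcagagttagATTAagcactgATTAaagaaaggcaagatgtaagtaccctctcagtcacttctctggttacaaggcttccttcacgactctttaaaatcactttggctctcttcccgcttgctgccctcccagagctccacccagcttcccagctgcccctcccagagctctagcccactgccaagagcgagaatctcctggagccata
Cacna2d3: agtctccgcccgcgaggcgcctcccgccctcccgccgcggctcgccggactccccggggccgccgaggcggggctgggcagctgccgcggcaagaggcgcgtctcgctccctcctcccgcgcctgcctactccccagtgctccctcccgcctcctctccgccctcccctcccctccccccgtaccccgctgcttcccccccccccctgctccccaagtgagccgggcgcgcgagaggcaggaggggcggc
The Scn11a window held 4 matches to TAAT on either strand, of which a pair overlap, and 9.62% of all 32851 windows of this length held 4 or more. The Cacna2d3 window held none and was 80% G and C, against a median of 52.4%, with 30 CG dinucleotides against a median of 6. For Scn10a the window (chr9:119719033-119719282) lies in an annotated untranslated exon and is not printed. It held 1 match. Over the 37 windows of the 26 members, 15 held TAAT, against 54.9% of all windows. By gene, 14 of the 26 members had TAAT in at least 1 window. CTAATG, a longer form bound by LIM-homeodomain proteins, was in 3 of the 37, those of Scn2a, Scn9a and Cacng7, against 6.36% of all. TTCAGCACC, part of the site of the neuronal gene repressor REST, was in 0 of the 37, against 0.301% of all. TGACGTCA, the cAMP response element, was in 0 (1.55% of all) and TATAAA in 2 (12.4% of all). All were searched on both strands, and CTAATG matches also count as TAAT. These are matches of letters and describe no binding.

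In the control LGE, 29 of the 36 genes had a mean of at least 1 RPKM and 11 a mean of at least 10 RPKM. Scn3a led the sodium channel pore subunits, at 16 ± 1.2 RPKM (SD, n = 4). Its level was followed by that of Scn8a (8.18 ± 0.751 RPKM), which encodes Nav1.6, a channel of axon initial segments and nodes. Scn2a, Scn9a and Scn1a came next at 5.47, 4.89 and 4.08 RPKM, and each of these overlapped its neighbour in the order. Scn10a was low, at 0.415 RPKM, and Scn11a was at 0.0515 RPKM. Scn3a made up between 39.7% and 41.4% of the summed sodium pore RPKM in the controls.

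Among calcium channel pore subunits the T-type gene Cacna1h was highest in the controls, at 25 ± 1.06 RPKM. Cacna1b, the N-type channel of nerve terminals, followed at 19 ± 1.96 RPKM and Cacna1e, the R-type channel, at 12 ± 1.34 RPKM. The 4 values of each of these did not overlap those of the next gene in the order. Then came Cacna1c, Cacna1a, Cacna1g and Cacna1d, at 7.2, 5.3, 4.38 and 3.73 RPKM, the last pair overlapping. Cacna1i was at 0.966 RPKM, and Cacna1s, the channel of skeletal muscle, at 0.0166 RPKM. The T-type genes together took a mean of 39.1% of the summed calcium pore RPKM, the Cav2 genes 46.8% and the L-type genes 14.1%.

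In each auxiliary family 1 or 2 genes held most of the RPKM. Scn3b took a mean of 82.3% of the sodium beta RPKM, Cacna2d3 76.1% of the alpha2delta RPKM and Cacnb3 71.9% of the calcium beta RPKM. Cacng4 and Cacng7 took 44.7% and 35.3% of the gamma RPKM. The 3 highest control means of the whole set were those of Cacng4 (72.7 RPKM), Cacnb3 (68.4 RPKM) and Cacng7 (57.6 RPKM). The lengths behind the RPKM were 984 bases for Cacng4 and 828 for Cacng7, against merged exon lengths of 3575 and 2441 in the GENCODE annotation. With the merged lengths, chosen after the data were seen, their control levels were 20 and 19.5 RPKM and that of Cacnb3 was 51.4 RPKM. Cacng4 then lay below Cacnb3, Scn3b (23.8 RPKM) and Cacna1h (21.1 RPKM), so the order across families depends on the length used. The order of the genes within each family was the same with both lengths.

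**Figure D1:**
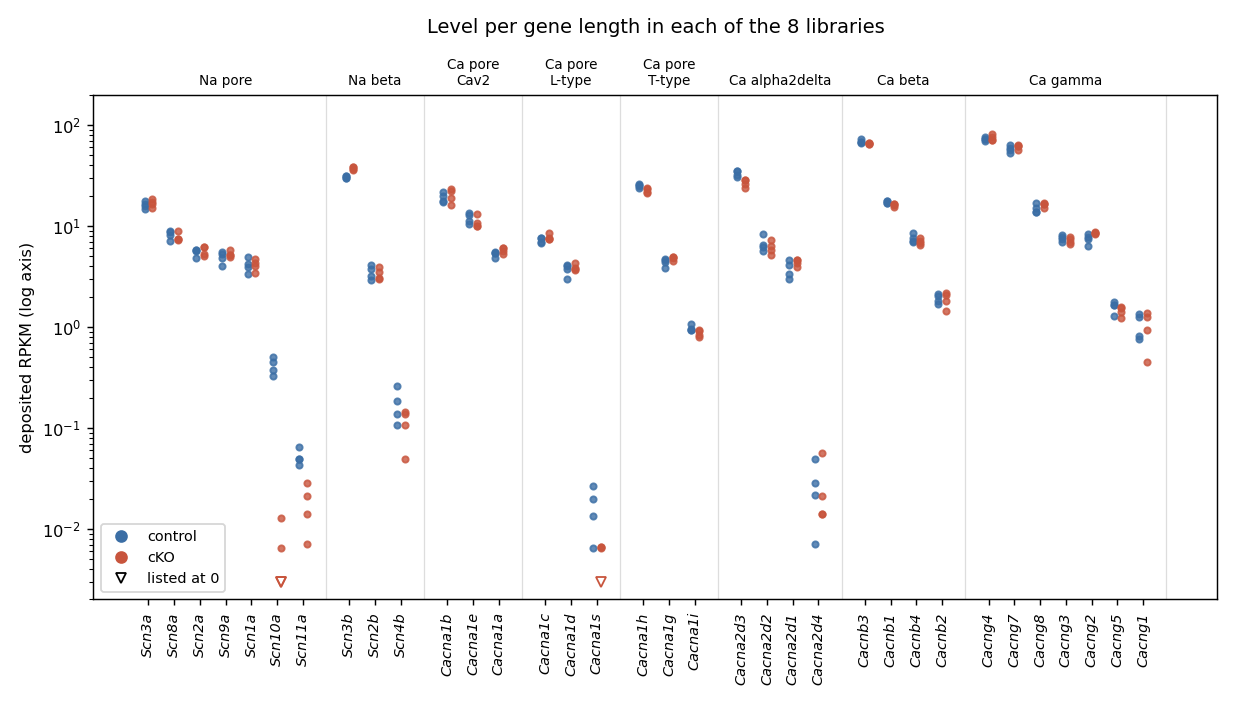
Deposited RPKM of 34 channel genes on a log axis, by family; each point is 1 of the 4 control (blue) or 4 cKO (red) libraries, and open triangles mark values listed at 0. Control and cKO points lie together for most genes, while Scn10a drops from between 0.325 and 0.506 RPKM to 0.0129 RPKM or less.

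In the cKO, 3 of the 36 channel genes changed: Scn10a and Cacna2d3 fell and Scn3b rose. The test was limma on log2(adjusted value + 1), with Benjamini-Hochberg adjustment over all genes tested and a threshold of 0.05. All 36 members passed the filter on low values, Scn10a through its 4 controls and 2 cKO libraries. The 3 called members are 8.33% of the set, against 6.66% of all 15698 genes tested (3.78% fallen and 2.87% risen). The median log2 fold change over the members was -0.05, against 0.0059 over all genes, with 16 members above 0 and 20 below. The ranges of the groups lay apart in 7 members, or 19.4%, against 12.7% of all genes. An unadjusted p under 0.05 was reached by 9 members, which compares with 18.7% of all genes. By the authors' deposited table, 4 members had an adjusted p under 0.05 (6.55% of all genes in that table), the 3 above and Scn11a. The same 3 genes were called without control replicate 3 and cKO replicate 4.

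**Figure D2:**
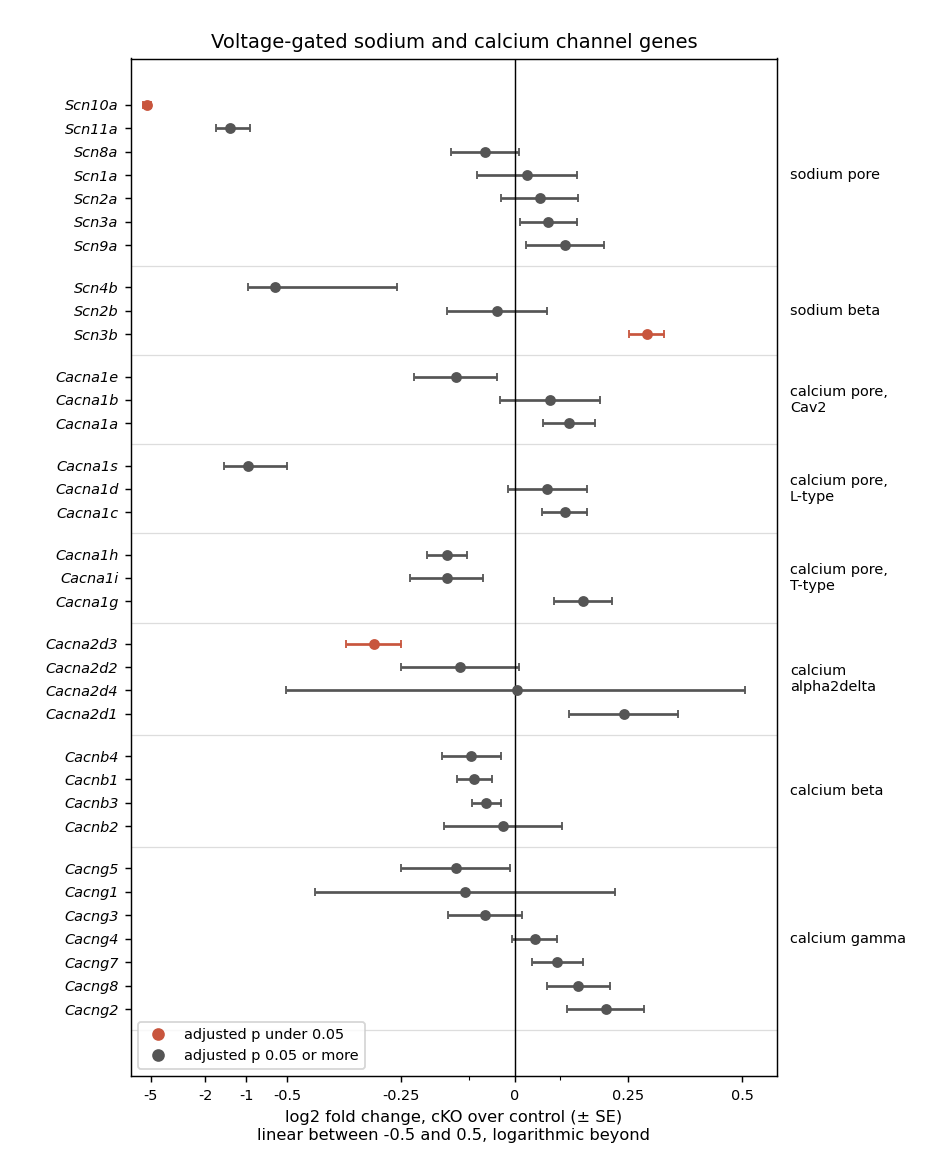
Fitted log2 fold change of cKO over control with its SE for 34 channel genes, grouped by family, on an axis that is linear between -0.5 and 0.5 and logarithmic beyond. Scn10a (-5.36), Cacna2d3 (-0.31) and Scn3b (0.29), in red, passed the test.

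For the 33 channel genes that did not pass, the 95% interval of the log2 fold change is, like the SEs, too narrow to a degree. In 26 of them it lay within 0.5 of 0. It excluded 0 in 6 of the 33. It reached beyond 0.5 in 7, among them Scn11a, Scn4b, Cacna1s, Cacna2d1, Cacna2d4 and Cacng1. Of these, Scn11a, Scn4b, Cacna1s, Cacna2d4 and Cacng1 had control means of 30.2 or less in adjusted value.

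Scn10a, which encodes the tetrodotoxin-resistant channel Nav1.8, had the widest difference of the set. Its adjusted values in control replicates 1 to 4 were 57, 51, 71 and 78. In cKO replicates 1 to 4 they were 1, 0, 2 and 0. Each control library thus held at least 51 and no cKO library more than 2. The log2 fold change was -5.36 ± 0.38 (SE), with a limma adjusted p of 5.23e-06. Because cKO values were at or near 0, its size depended on the added constant and was -2.78 with a constant of 10, -6.02 with 0.5 and -2.28 on the RPKM (constant 0.1). The call held in all 20 alternatives, with adjusted p up to 0.000351. Scn10a supplied a mean of 1.05% of the summed sodium pore RPKM in the controls. In bulk tissue, fewer cells with a transcript and less of it per cell cannot be told apart.

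Scn10a lies on chromosome 9 (119608456 to 119719322, minus strand, GRCm38) with Scn11a 34.4 kb away. Scn11a encodes Nav1.9, a persistent sodium channel, and was close to the lower limit of the table. It had values of 9, 7, 7 and 6 in the controls and 1, 4, 3 and 2 in the cKO, in order of replicate. The groups did not overlap, but the gene did not pass (log2 fold change -1.31 ± 0.37, limma adjusted p = 0.0584). It passed in 4 of 19 alternatives, among them the authors' deposited table (adjusted p = 0.0386) and the fit without cKO replicate 2 (0.0472), and the adjusted p ran from 0.0378 to 0.202. With a constant of 10 its log2 fold change was -0.47, and on the RPKM it was -0.37.

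**Figure D3:**
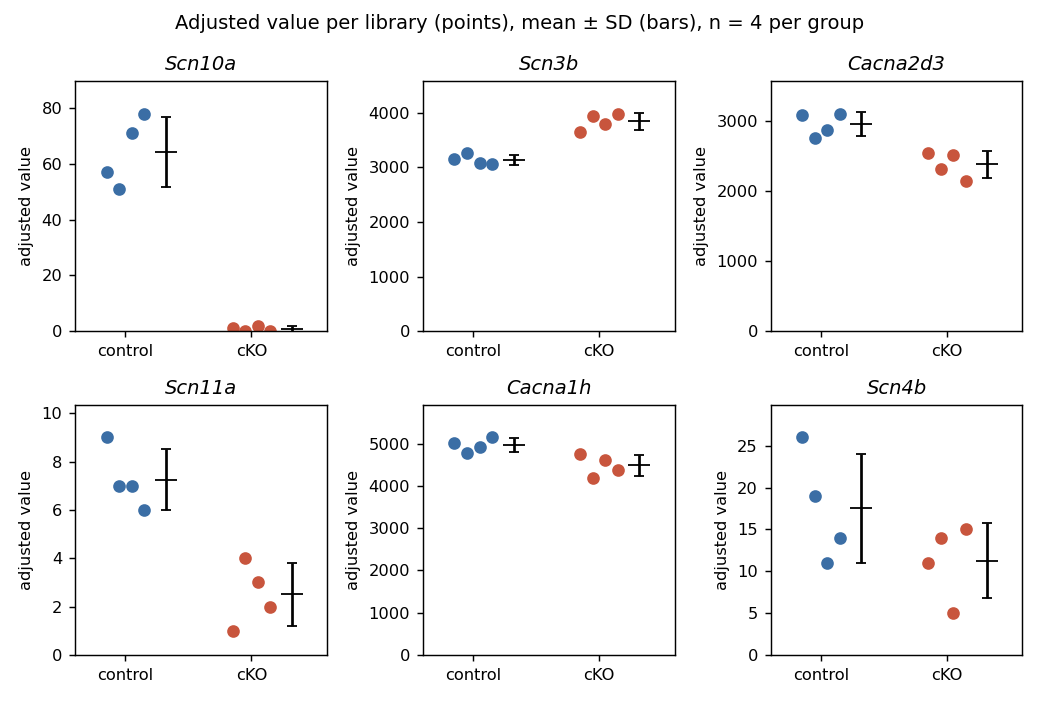
Adjusted value of 6 channel genes in each library (points), with the mean and SD (bars) of the 4 control and 4 cKO libraries; each vertical axis starts at 0. The groups do not overlap for Scn10a, Scn3b, Cacna2d3, Scn11a and Cacna1h, and overlap for Scn4b.

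Markers of cholinergic neurons were among those that fell in the cKO along with Scn10a. They were not alone, since 6 of 8 striatonigral markers and 3 of 6 interneuron markers (1 rose) fell in the same libraries. Of the 5 cholinergic genes reported here 4 fell, against 3.78% of all genes. The summed value of the 5 was 421 to 724 across the controls and 174 to 365 across the cKO. The gene of acetylcholine synthesis, Chat, was at 13, 21, 15 and 9 in the controls and at 0, 2, 2 and 1 in the cKO. Of the 5 sensory neuron markers reported here none passed, by limma, and 1 (Pou4f1) had an unadjusted p under 0.05, against 18.7% of all genes. Their summed value was 31 to 47 across the controls and 33 to 54 across the cKO. Peripherin (Prph), a filament protein of peripheral neurons, was at 3, 3, 6 and 3 in the controls and at 4, 5, 4 and 4 in the cKO. In P2rx3, a receptor of pain-sensing neurons, the values were 25, 13, 15 and 20 against 17, 20, 27 and 9. Among the controls, Scn10a was highest in replicate 4. Chat, Slc18a3 and Lhx8 were lowest in that library, and Slc5a7 and Gbx2 were lowest in replicate 1. The part of these cells in the Scn10a difference was not tested.

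**Figure D4:**
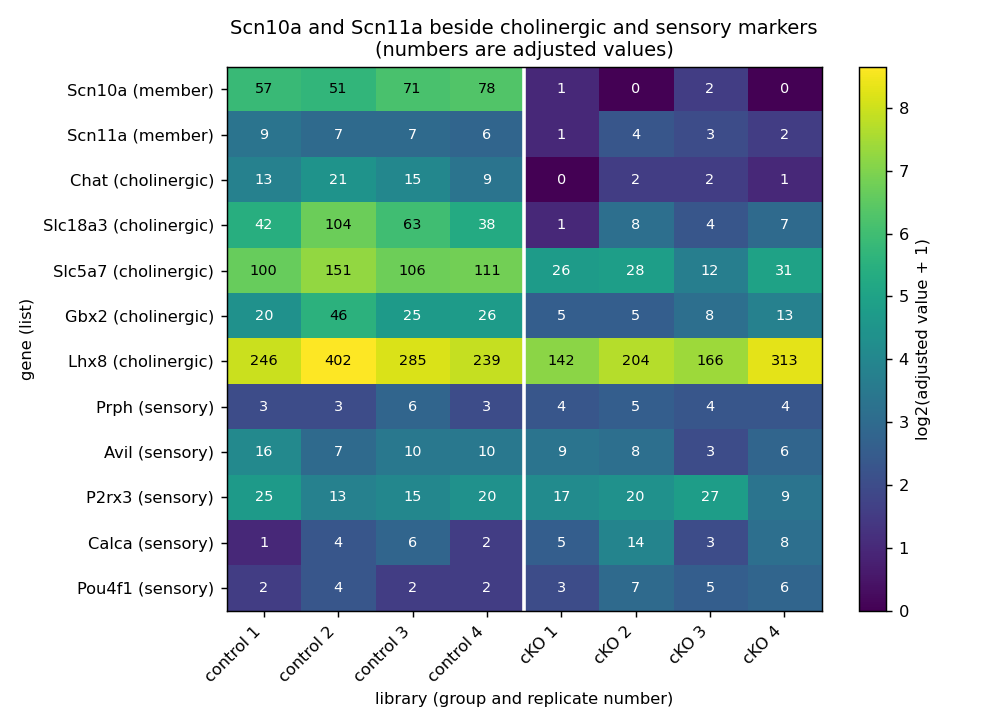
Adjusted values (numbers) and log2(adjusted value + 1) (colour) of Scn10a, Scn11a and markers of cholinergic and sensory neurons in the 8 libraries. Scn10a, Chat, Slc18a3, Slc5a7 and Gbx2 are lower in every cKO library than in any control, while Prph and P2rx3 overlap.

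None of the 5 sodium pore genes with a control mean of at least 1 RPKM passed, by limma or in the authors' deposited table. Of the 5, 0 had an unadjusted p under 0.05, against 18.7% of all genes. Scn3a, the leading one, had values of 3966, 3635, 3417 and 3778 in the controls and 4263, 3820, 3495 and 4010 in the cKO, which overlap. Its log2 fold change was 0.074 ± 0.062, with a 95% interval from -0.062 to 0.21. Scn8a was at -0.065 ± 0.075 (interval -0.23 to 0.099). Scn2a, which encodes the Nav1.2 channel of immature axons, was at 0.055 ± 0.085. For Scn9a, which encodes Nav1.7, the log2 fold change was 0.11 ± 0.086, and for Scn1a, the Nav1.1 channel of many inhibitory neurons, it was 0.026 ± 0.11. The adjusted p of these 5 genes was between 0.54 and 0.939. With the low genes included, summed sodium pore RPKM overlapped between the groups, with a mean of 39.6 ± 2.97 for the controls and 40 ± 3.33 for the cKO (SD, n = 4). Scn3a took a mean of 40.5% of that sum in the controls and 42% in the cKO.

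Scn3b, the beta3 subunit found in embryonic brain, was the channel gene that rose. Its adjusted values were 3153, 3261, 3077 and 3057 in the controls and 3643, 3942, 3784 and 3979 in the cKO. Every cKO library lay above every control. The mean went from 3137 ± 92.4 to 3837 ± 154.5 (SD, n = 4), a ratio of 1.22, and the log2 fold change was 0.29 ± 0.039 (limma adjusted p = 0.000716). The call held in all 20 alternatives, with log2 fold changes between 0.26 and 0.31. Scn3b is on chromosome 9 (40269217 to 40291618, plus strand).

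No other beta subunit passed. Scn4b, whose product gives resurgent sodium current and is known as a marker of mature striatal neurons, was low, at 26, 19, 11 and 14 against 11, 14, 5 and 15 (-0.62 ± 0.36, adjusted p = 0.398). Scn2b, 8.32 kb from Scn4b, was at -0.038 ± 0.11, and that sign turned without control replicate 1, cKO replicate 2 or cKO replicate 4. Scn3b took a mean of 82.3% of the summed sodium beta RPKM in the controls and 86.5% in the cKO. The summed beta RPKM was 37.2 ± 1.39 in the controls and 43.1 ± 0.66 in the cKO, and each cKO library (42.3 to 43.7) was above each control (35.4 to 38.8).

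Among calcium channel pore genes none of 9 passed by limma or in the authors' deposited table. An unadjusted p under 0.05 was reached by 2 of the 9 (Cacna1h and Cacna1g), against 18.7% of all genes. Nearest to passing was the T-type gene Cacna1h, which gives low-threshold calcium current. Its values were 5021, 4770, 4925 and 5151 in the controls and 4768, 4196, 4616 and 4374 in the cKO. The highest cKO library lay just below the lowest control. The log2 fold change was -0.15 ± 0.044, with an adjusted p of 0.0784. It passed in 3 of 20 alternatives, with quantile normalization (0.0386), with the replicate number as a block (0.0389) and without cKO replicate 1 (0.0275), and the adjusted p reached 0.32 in the authors' deposited table. Cacna1h shares 158 exon bases with Tpsg1, a gene on the opposite strand that was not analysed here.

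The other T-type genes, Cacna1g and Cacna1i, had log2 fold changes of 0.15 ± 0.064 (adjusted p = 0.243) and -0.15 ± 0.08 (0.363). The fitted difference was thus above 0 for Cacna1g and below 0 for its relatives. Cacna1h took a mean of 32.3% of the summed calcium pore RPKM in the controls, from 30.6% to 33.9%, and 29.4% in the cKO, from 27.8% to 30.5%. Those ranges did not overlap, nor did those of Cacna1g, at 5.28% to 6.06% in the controls and 6.12% to 6.54% in the cKO. These shares are descriptions without a test.

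The Cav2 genes of nerve terminals overlapped between the groups. Cacna1a, the P/Q-type channel, was at 0.12 ± 0.057 in log2 fold change (adjusted p = 0.278) and Cacna1e at -0.13 ± 0.091 (0.501). Cacna1b varied within the groups, from 4111 to 5144 in the controls and from 3848 to 5511 in the cKO, and its log2 fold change was 0.077 ± 0.11 (0.771). Among L-type genes, which couple activity to transcription, Cacna1c was at 2634, 2467, 2490 and 2676 in the controls and 3039, 2667, 2686 and 2676 in the cKO (0.11 ± 0.049, adjusted p = 0.275). Cacna1d was at 0.072 ± 0.087 (0.729), a sign that turned without control replicate 3. Cacna1s held values of 4 or less in every library. Of 6 skeletal muscle markers 4 were tested and 0 called, against 6.66% of all genes. Their sums were 57 to 72 in the controls and 50 to 75 in the cKO. The summed calcium pore RPKM was 77.6 ± 3.67 in the controls and 76.5 ± 4.99 in the cKO.

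Cacna2d3, which encodes the alpha2delta-3 subunit and leads its family in this tissue, fell. Alpha2delta proteins lie outside the membrane, raise the number of channels at the surface and act at synapses. The adjusted values of Cacna2d3 were 3088, 2763, 2871 and 3103 in the controls and 2545, 2311, 2518 and 2144 in the cKO. Every cKO library lay below every control. The mean went from 2956 ± 166.8 to 2379.5 ± 188.6 (SD, n = 4), a ratio of 0.805, and the log2 fold change was -0.31 ± 0.06 (limma adjusted p = 0.00731). Its call held in all 20 alternatives, with adjusted p up to 0.0472. Cacna2d3 lies on chromosome 14 (28904943 to 29721864, minus strand, GRCm38), a span of 816922 bases. The next member, Cacna1d, is 318 kb away.

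The remaining alpha2delta genes did not pass. Cacna2d1, a subunit that binds gabapentin, was at 595, 841, 538 and 734 in the controls and 780, 840, 834 and 712 in the cKO. Its log2 fold change was 0.24 ± 0.12 (limma adjusted p = 0.312). Cacna2d2 was at -0.12 ± 0.13 (0.689), and Cacna2d4, with values of 8 or less, at 0.0045 ± 0.52. Summed alpha2delta RPKM was 41 to 45.5 across the controls and 34.8 to 39.1 across the cKO, without overlap. Cacna2d3 took a mean of 76.1% of it in the controls and 71.6% in the cKO, and Cacna2d1 8.56% and 11.8%.

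Some cell marker lists also moved with Scn3b and Cacna2d3. For scale, 3.78% of all genes fell and 2.87% rose. Of 7 markers of striatal projection neurons, the main neurons of this tissue, 2 fell and 1 rose by limma. Ppp1r1b (log2 fold change -0.74 ± 0.11) and Rarb (-0.4 ± 0.064) fell and Meis2 (0.34 ± 0.046) rose, and the list's sums overlapped, at 95949 to 100474 across the controls and 98524 to 105554 across the cKO. Of 8 striatonigral (direct pathway) markers 6 fell, with sums of 17766 to 20493 across the controls and 11159 to 12376 across the cKO. Among 6 striatopallidal (indirect pathway) markers 2 rose, with sums of 10788 to 11883 against 12384 to 12648. Of 7 microglial markers 6 rose, with sums of 1204 to 1393 against 1860 to 2398. Of 6 interneuron markers 3 fell and 1 rose (5626 to 6314 against 4571 to 5333). Of 5 oligodendrocyte lineage markers 0 passed (2881 to 3211 against 2749 to 2812). The part of these cells in the Scn3b and Cacna2d3 differences was not tested.

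No calcium channel beta gene passed by limma or in the authors' deposited table. An unadjusted p under 0.05 was reached by 1 of 4, Cacnb1, against 18.7% of all genes. All 4 fitted differences were below 0. These cytoplasmic subunits bring the pore to the membrane. Cacnb3, the most abundant, was at 5159, 4836, 5018 and 4895 in the controls and 4693, 4810, 4787 and 4762 in the cKO. The groups did not overlap, the closest libraries being at 4836 and 4810. Its log2 fold change was -0.063 ± 0.032 (adjusted p = 0.335), with a 95% interval from -0.13 to 0.0079. Cacnb1 also did not overlap, at 1630, 1568, 1587 and 1633 against 1548, 1510, 1535 and 1443 (-0.089 ± 0.038, adjusted p = 0.229). Cacnb4 was at -0.096 ± 0.065 and Cacnb2 at -0.026 ± 0.13. Cacnb4 shares 16% of its exon bases with a transcript on the opposite strand.

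The gamma genes did not pass either, by limma or in the authors' deposited table. An unadjusted p under 0.05 was reached by 1 of 7, Cacng2, against 18.7% of all genes. Cacng4, with the highest deposited RPKM of the set, was at 1693, 1675, 1728 and 1808 in the controls and 1923, 1672, 1812 and 1717 in the cKO. Its log2 fold change was 0.044 ± 0.049 (adjusted p = 0.701). Cacng7 was at 1238, 1184, 1066 and 1113 against 1140, 1276, 1233 and 1258 (0.094 ± 0.056, adjusted p = 0.417). Both overlapped between the groups. Cacng2, or stargazin, which carries AMPA receptors to synapses, had values of 432, 593, 525 and 541 in the controls and 610, 597, 575 and 602 in the cKO (0.2 ± 0.084, adjusted p = 0.225). Its control replicate 1 lay well below the others. Cacng8 was at 0.14 ± 0.069 and Cacng3 at -0.066 ± 0.081. Cacng5 and Cacng1 were low, with control means of 1.58 and 1.04 RPKM, and had log2 fold changes of -0.13 ± 0.12 and -0.11 ± 0.33. The summed gamma RPKM ran from 156 to 168 in the controls and from 167 to 173 in the cKO.

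Around the channels, 59 genes in 6 lists that bind, relay or regulate them were compared, and 3 rose and 3 fell. This is 10.2% of the lists, against 6.66% of all genes. Of 12 sodium channel partners 1 rose. This was Fgf14, a factor that binds the tail of the sodium pore at the axon initial segment, at 762, 780, 808 and 791 in the controls and 953, 879, 899 and 955 in the cKO (log2 fold change 0.23 ± 0.046, adjusted p = 0.01). Its call was lost without control replicate 3 and cKO replicate 4 (adjusted p = 0.0602). The like-named Fgf12 (-0.18 ± 0.078) and Fgf13 (-0.15 ± 0.045) were below 0 and Fgf11 (0.16 ± 0.061) above 0, none passing. By limma, 6 of the 12 partners had an unadjusted p under 0.05, against 18.7% of all genes. Ankyrin-G (Ank3), the anchor of sodium channels, was at 0.064 ± 0.053 (adjusted p = 0.575).

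Of 17 calcium channel partners 1 fell, against 3.78% of all genes. Rem2, a small G protein that binds the calcium beta subunit and reduces channel current, was at 564, 501, 526 and 549 in the controls and 290, 279, 320 and 262 in the cKO. Every cKO library was below every control, and the log2 fold change was -0.89 ± 0.072 (limma adjusted p = 1.61e-05), held in all 20 alternatives with adjusted p up to 0.000653. Of the 4 genes of the NALCN sodium leak channel, a relative of the voltage-gated pores, 2 fell, against 3.78% of all genes. Fam155a was at 1236, 1411, 1391 and 1337 in the controls and 1062, 1073, 1149 and 1143 in the cKO (-0.28 ± 0.051, adjusted p = 0.00605). Unc80 was at 965, 802, 819 and 906 against 738, 637, 707 and 655 (-0.35 ± 0.07, adjusted p = 0.0103). Neither gene overlapped between the groups. The Unc80 call was lost without control replicate 3 and cKO replicate 4 (0.0543) and with RPKM (0.064). Nalcn, the pore itself, was at 0.018 ± 0.042 (0.876).

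Of 6 calcium release channels 1 rose, against 2.87% of all genes. This was the ryanodine receptor gene Ryr2, at 430, 475, 412 and 438 in the controls and 581, 549, 472 and 627 in the cKO. The groups overlapped (0.34 ± 0.084, adjusted p = 0.033), and the call was lost in 10 of 20 alternatives. Among these were the fits without control replicate 1, 3 or 4 and without cKO replicate 1, 2 or 4 (0.0706 to 0.0991), and the highest adjusted p was 0.202, without control replicate 3 and cKO replicate 4. None of 12 calcium effectors passed, by limma or in the authors' deposited table. An unadjusted p under 0.05 was reached by 2 of them, Camk2a and Camk2b, against 18.7% of all genes. Camk2b, a calmodulin-dependent kinase subunit, was at -0.15 ± 0.041 (adjusted p = 0.0552). Of 8 splicing and repressor factors known to act on channel transcripts 1 rose, against 2.87% of all genes. Nova1, a neuronal splicing regulator, was at 2306, 3024, 2410 and 2603 in the controls and 3569, 3803, 3668 and 3944 in the cKO, without overlap (0.54 ± 0.073, adjusted p = 0.000713).

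**Figure D5:**
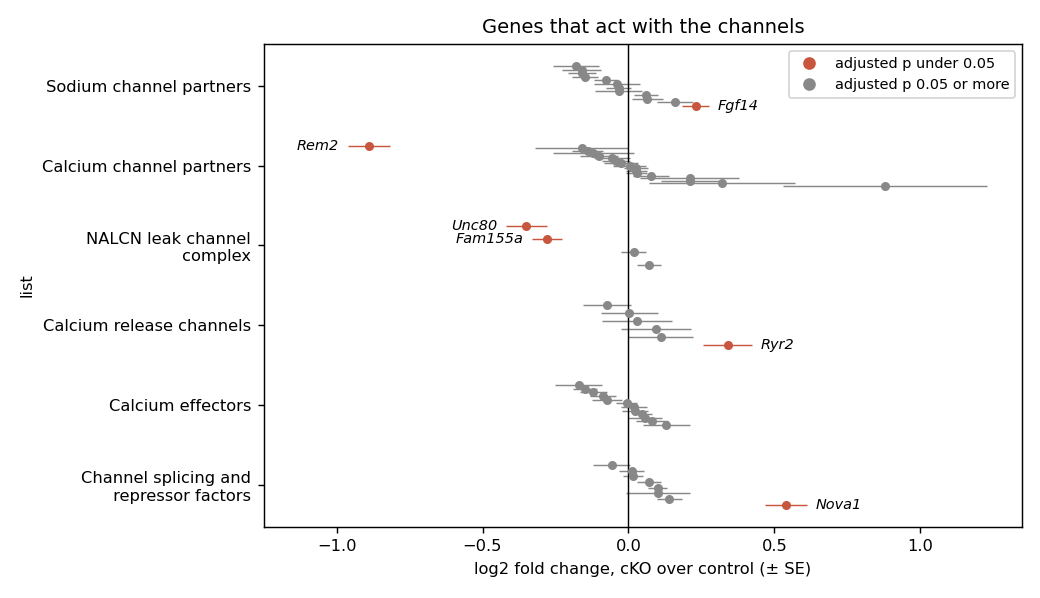
Fitted log2 fold change of cKO over control with its SE for 59 genes that act with the channels, in 6 lists; red points passed the test and are named. Rem2 (-0.89) lies lowest among them and Nova1 (0.54) highest.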

How the data were processed

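Poly(A) RNA of 8 libraries was sequenced as single reads of 85 bp from a directional kit, per the labels' protocols. Per the submitters' processing notes, the authors' tools were STAR, featureCounts and edgeR, on mm10, and the sources used here give no versions or counting options, strand included. The columns named as raw hold a score: whole numbers that were scaled and adjusted by the authors, with upper quartiles between 1624 and 1635, and not read counts. Depth is therefore unknown, and no count model or counting interval was used. RPKM values were deposited by the authors and equal these values divided by library sum and gene length. The authors' deposited log2 fold changes and p-values were an alternative.

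Genes reaching a value of 1 in 4 libraries (15698, with 7 left out) were compared as log2(value + 1) with limma 3.58.1 (mean trend, Benjamini-Hochberg, R 4.3.3), 4 cKO against 4 control libraries in 1 fit, and errors are SE of the fit or SD over libraries. Where nothing says more of the embryos, p-values measure the spread between these samples. Replicate numbers were not taken as pairs in the main fit, and whether they pair the libraries is not known. The channel genes, the partner lists and the marker lists were chosen with earlier results of these data known, so no list was tested. Values of some listed genes are not reported here, although counts and sums over the channel genes include them. Of the other members, those that passed, the 6 with the highest control RPKM and those with an adjusted p up to 0.15 were given in full. Scn3a, Scn4b, Cacna1c, Cacna2d1, Cacnb1 and Cacng2 lie outside this rule and were also given by library. In each partner list the genes that passed were named, besides Ank3, Nalcn, Camk2a, Camk2b, Fgf11, Fgf12 and Fgf13, which were added after their values were seen. Gene positions are from GENCODE M21 (GRCm38), and windows from RefSeq. The fit was tested on simulated data, but no result of that is given here, and the p-values do not rest on it. Figures used matplotlib 3.10.9.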

Additional observations from a re-analysis of the deposited data

Results flagged for a closer look

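Within a group of 4 libraries, a value was marked when its gap to the nearest other library, as a share of the group's range, exceeded Dixon's 95% limit. This happened in 6 of the 72 groups of channel gene values, and chance alone marks about 1 in 20. Cacna1a was at 932 in control replicate 3, against 1034 to 1053 in the other controls. Scn2a was at 1044 in control replicate 1, against 1252 to 1287. Among cKO libraries, Cacna1c was at 3039 in replicate 1 (others 2667 to 2686) and Cacna1g at 900 in replicate 2 (others 975 to 986). The remaining pair are low genes: Cacna1s at 0 in cKO replicate 2 against 1 in the others, and Cacna2d4 at 8 in cKO replicate 1 against 2 to 3. None of these genes passed the comparison, with or without the library named.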

How the results depend on the processing

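The count of called channel genes was 3 in the fit as reported, from 3 to 4 in the 8 fits that left out 1 library each, and 5 with quantile normalization, which added Scn11a and Cacna1h. Over all genes the count was 1045, from 659 (without control replicate 4) to 959 in the fits that left out 1 library, and 610 without control replicate 3 and cKO replicate 4, the libraries lowest in pallial markers. The partner lists had 6 called genes, from 5 to 8 in the fits that left out 1 library, and 3 without that pair. With the replicate block 1199 genes, 4 channel genes and 7 partner genes were called. Same-numbered libraries had correlations of deviations of 0.058, 0.13, -0.047 and -0.49, and 2 of 8 libraries correlated best with their own number. Because the adjusted values lack 1 direction of variation, this cannot settle whether same-numbered libraries were pairs. When the direction missing from the values was added to the model, 749 genes and the same 3 channel genes were called.

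Some log2 fold changes near 0 turned sign. Without control replicate 3 and cKO replicate 4 these were Cacna1b (-0.038), Cacna1d (-0.0054) and Scn1a (-0.057). Cacna2d4 turned with a constant of 10 (-0.0036), with quantile normalization (-0.073) and with RPKM (-0.0039), and Cacng1 was at 0.005 in the authors' deposited table. Leaving out 1 library gave ranges across 0 for Cacna1d (-0.023 to 0.12), Cacna2d2 (-0.2 to 0.0034), Cacna2d4 (-0.36 to 0.31), Cacnb2 (-0.1 to 0.096), Cacng1 (-0.3 to 0.22), Scn1a (-0.064 to 0.11), Scn2a (-0.015 to 0.11) and Scn2b (-0.11 to 0.036). The cause was not tested. Low values limit Scn11a, Cacna1s, Cacna2d4, Scn4b and Cacng1.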
